A study of Danio rerio with 6 samples.

Results

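Genes whose products build the cilium, its axoneme or the tail of the sperm were compared between foxl2l-/- and foxl2l+/+ germ cells of juvenile zebrafish. The 91 genes were taken by name from the 31743 genes of the deposited table. They comprise axonemal dynein chains (dnah, dnai, dnal), radial spoke and nexin genes (rsph, drc, ccdc65), central apparatus genes (hydin, spef2, spag6), cilia and flagella associated proteins (cfap), tektins and outer dense fibre genes (tekt, odf), intraflagellar transport genes (ift) and genes named for sperm or testis (the other spag genes, spata, klhl10, ropn1l). The meiotic gene spata22 was left out, and 6 genes that the table names in capitals were not matched by the name rule. Transcripts were counted by RNA sequencing in 3 libraries of each genotype, for which the labels give about 300 sorted cells per genotype without saying whether that holds for each library. All fish were of the TL strain, aged 21 days post fertilization, and carried foxl2l:egfp, so that cells were selected from dissociated trunks by EGFP fluorescence from that reporter in both genotypes. The labels give neither the mutated part of foxl2l nor whether libraries of a genotype came from separate fish, so p-values speak only of the variation among these libraries, and that variation may be technical.

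The axoneme is a ring of doublet microtubules around a central pair. Outer and inner dynein arms on the doublets produce bending, radial spokes and central pair projections regulate the arms, the nexin-dynein regulatory complex links neighbouring doublets, and tektins and many CFAP proteins line the doublet walls. Intraflagellar transport trains carry components along most cilia during assembly. The sperm tail is an elongated motile cilium formed after meiosis, and early prophase germ cells of zebrafish are also known to carry a cilium. Several genes named for sperm or testis act elsewhere in the cell.

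Libraries held 25176401 to 39189535 counts, of which the members took 0.235% to 0.267%. At most 2 members were at 0 in any library. Reads were assigned to foxl2l (listed as zgc:194189) in both genotypes, with 17630 to 22491 counts in foxl2l+/+ and 31437 to 47231 in foxl2l-/- libraries, which checks nothing about the labels because the mutated part is not given. Of 9 germ cell markers, nanos3 rose, dnd1 and ca15b fell and 6 did not pass. The RNA helicase gene ddx4 was at 1070 to 1475 TPM (a level scaled for gene length and library depth) in foxl2l-/- and 1192 to 1390 TPM in foxl2l+/+ libraries, whereas ca15b was at 1.04 to 1.78 TPM and 5.33 to 15.6 TPM. Of 9 genes fixed as markers of multiciliated epithelium outside the gonad, 3 rose and 1, epcam, fell. Their summed level was 27.1 to 45.9 TPM in foxl2l-/- and 108 to 230 TPM in foxl2l+/+ libraries. Epcam alone was at 11.6 to 24.4 TPM and 97.9 to 220 TPM in the same order. The lower sum in foxl2l-/- libraries thus came from that gene and does not describe the other markers. The 3 that rose were foxj1b, pax8 and krt4, all below 10 TPM in every library, and krt4 was at 0 in foxl2l+/+ replicate 3. The multiciliation regulator mcidas lay at 0.307 to 1.05 TPM and the kidney epithelium gene cdh17 at 0.572 to 1.32 TPM over all libraries. Foxj1a lay at 0.575 to 1.05 TPM and pax2a at 1.56 to 2.82 TPM. Gmnc had the highest level of these uncalled markers, at 6.53 to 11.2 TPM in foxl2l-/- and 3.79 to 7.39 TPM in foxl2l+/+ libraries. Spermatid and sperm markers summed to 212 to 300 TPM in foxl2l-/- and 238 to 260 TPM in foxl2l+/+ libraries, with tssk6 at 0 in all libraries. Most of that sum came from a gene listed as pgk1, matched to the marker pgk2, so the sum does not describe the other markers. These data do not show that this gene marks sperm. Without it the sums were 69.0 to 104 TPM and 91.0 to 109 TPM. Of the 9 tested, ccdc87, dcst1 and dcst2 rose and izumo1 and tsga10 fell. The gene listed as pgk1 was among the 4 that did not pass. Of 11 tested somatic gonad markers, dmrt1 rose and cyp11a1 fell. The 14 listed, tested or not, summed to 162 to 199 TPM in foxl2l-/- and 89.2 to 110 TPM in foxl2l+/+ libraries. Dmrt1, which germ cells also express, was alone at 145 to 177 TPM and 73.7 to 88.7 TPM. The higher sum in foxl2l-/- libraries thus rested mostly on dmrt1. Gsdf was at 3.74 to 10.9 TPM in foxl2l-/- and 2.22 to 3.54 TPM in foxl2l+/+ libraries. In the same order, cyp11a1 was at 3.22 to 7.09 TPM and 7.91 to 9.89 TPM, and cyp19a1a at 1.35 to 5.08 TPM and 0.949 to 1.37 TPM. The lowest was fshr, at or below 0.0877 TPM in all libraries. The calls of nanos3, dnd1, foxj1b, pax8, krt4, cyp11a1 and dcst1 ended when some single library was left out, and those of dnd1 (adjusted p = 0.178) and cyp11a1 (adjusted p = 0.0888) also under library totals. By list, 33.3% of tested germ cell, 44.4% of multiciliated epithelium, 55.6% of sperm and 18.2% of somatic gonad markers were called. Of all 23576 tested genes, 31.6% were called in either direction. The part of these cell types in the results was not tested.

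The members did not move together. In the comparison of foxl2l-/- with foxl2l+/+ cells, 21 of 90 tested members rose and 22 fell, with Benjamini-Hochberg adjusted p below 0.05 (edgeR, quasi-likelihood), and 47 did not pass. Of all 23576 tested genes 15.7% were called higher and 15.8% lower, or 31.6% in either direction. The change was 2-fold or more for 15 members that rose and 16 that fell, while 12.4% and 10.6% of all tested genes were called with such a change. The median log2 fold change was 0.04 for the members and 0.05 for all tested genes. The genotypes' ranges of CPM, depth-scaled counts with TMM factors, did not overlap for 57 of the 90, against 46.7% of all tested genes. Of these, 29 were higher and 28 lower in foxl2l-/- cells, against 23.9% and 22.8%. Summed over the members, the level was 2061 to 2368 TPM in foxl2l-/- and 2304 to 2434 TPM in foxl2l+/+ libraries, which overlapped. Summed CPM, which gives more weight to long genes and carries the TMM factors, was 2129 to 2413 in foxl2l-/- libraries. In foxl2l+/+ libraries it was 2656 to 2936, without overlap. Of the plain library totals, the members took 0.235% to 0.259% in foxl2l-/- and 0.251% to 0.267% in foxl2l+/+ libraries, which overlapped. With library totals in place of TMM, 28 members rose and 18 fell (20.7% and 11.5% of all tested genes), and with limma-trend on log2(TPM + 1) the counts were 30 and 18 (22.6% and 11.2% of all tested genes). Library totals also moved the median of all genes to 0.25. In bulk RNA a smaller share of cells that express a gene and less RNA per cell cannot be told apart.

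**Figure D1:**
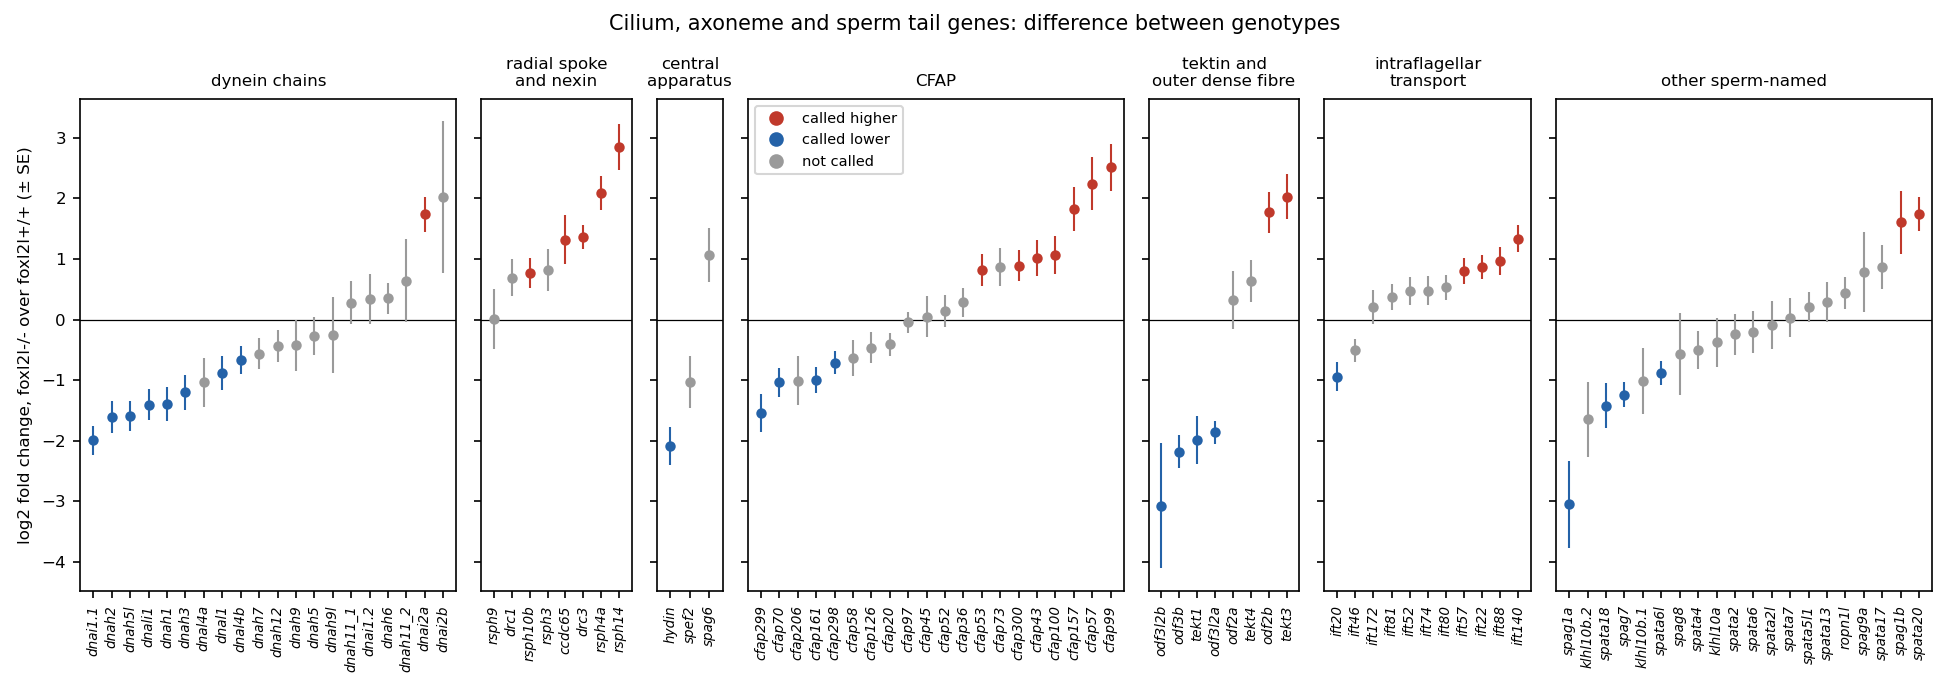
Log2 fold change of foxl2l-/- over foxl2l+/+ for the 90 tested members by class (points, edgeR estimate; bars, SE; n = 3 libraries per genotype), coloured by call at an adjusted p of 0.05. Radial spoke and nexin genes have 5 calls, all higher, while dynein chains have 8 calls lower and 1 higher.

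Radial spoke and nexin genes were higher in foxl2l-/- cells. Of 8 tested, 5 rose, none fell and 3 did not pass, so 62.5% were called, against 31.6% of all tested genes. The median log2 fold change of these 8 was 1.07. None was called lower in any other setting or with any library left out, but the count of genes that rose was 3 without foxl2l+/+ replicate 1 and 3 without foxl2l+/+ replicate 3. Their summed level was 170, 195 and 214 TPM in the foxl2l-/- libraries and 50.5, 57.5 and 62.2 TPM in the foxl2l+/+ libraries, so each foxl2l-/- library lay above each foxl2l+/+ library. Rsph14 (chromosome 8, 44566708 to 44586985, reverse strand, GRCz11 as for all positions here), a radial spoke gene, measured 7.01, 3.13 and 10.9 TPM in foxl2l+/+ replicates 1 to 3 and 67.5, 47.3 and 61.1 TPM in foxl2l-/- replicates 1 to 3. Every foxl2l-/- library lay above every foxl2l+/+ library, and the gene rose by 2.85 ± 0.38 on the log2 scale (SE; edgeR adjusted p = 0.000189).

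The spoke head gene rsph4a (chromosome 5, 61919217 to 61930860, forward strand) measured 3.72, 3.54 and 4.10 TPM in foxl2l+/+ and 16.7, 20.01 and 21.3 TPM in foxl2l-/- libraries, a narrow range within each genotype and no overlap. It rose by 2.09 ± 0.28 (log2, SE; edgeR adjusted p = 0.000191). Drc3, a nexin-dynein regulatory complex subunit (chromosome 3, 62126981 to 62138955, forward strand), measured 25.9, 19.2 and 21.9 TPM in foxl2l+/+ and 67.0, 58.2 and 80.5 TPM in foxl2l-/- libraries and rose by 1.37 ± 0.20 (edgeR adjusted p = 0.000418). Ccdc65, which encodes another subunit of that complex, rose by 1.32 ± 0.40 from 2.13 to 2.95 TPM, reaching 6.18 to 10.5 TPM without overlap. Rsph10b, of the spoke head, rose by 0.77 ± 0.25, from 6.68 to 8.16 TPM to 13.1 to 17.6 TPM. The call of ccdc65 ended on leaving out foxl2l-/- replicate 1 or foxl2l+/+ replicate 1 or 3 (edgeR adjusted p = 0.134, 0.0566 and 0.0726). That of rsph10b ended without foxl2l-/- replicate 2 or 3 or foxl2l+/+ replicate 1 or 3 (0.0906, 0.052, 0.0724 and 0.0972).

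The remaining spoke and nexin members did not pass. The spoke stalk gene rsph3 had a log2 fold change of 0.82 ± 0.35 and the nexin gene drc1 one of 0.69 ± 0.30 (SE), both with all foxl2l-/- libraries above all foxl2l+/+ libraries. With library totals both were called, which brings the class to 7 of 8. That scaling moved all tested genes upward, from a median of 0.05 to 0.25 and from 15.7% to 20.7% called higher. The median of the class went from 1.07 to 1.28. The spoke head gene rsph9 overlapped between genotypes, at 2.33 to 6.03 TPM in foxl2l+/+ and 3.25 to 8.18 TPM in foxl2l-/- libraries, with a log2 fold change of 0.01 ± 0.49.

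**Figure D2:**
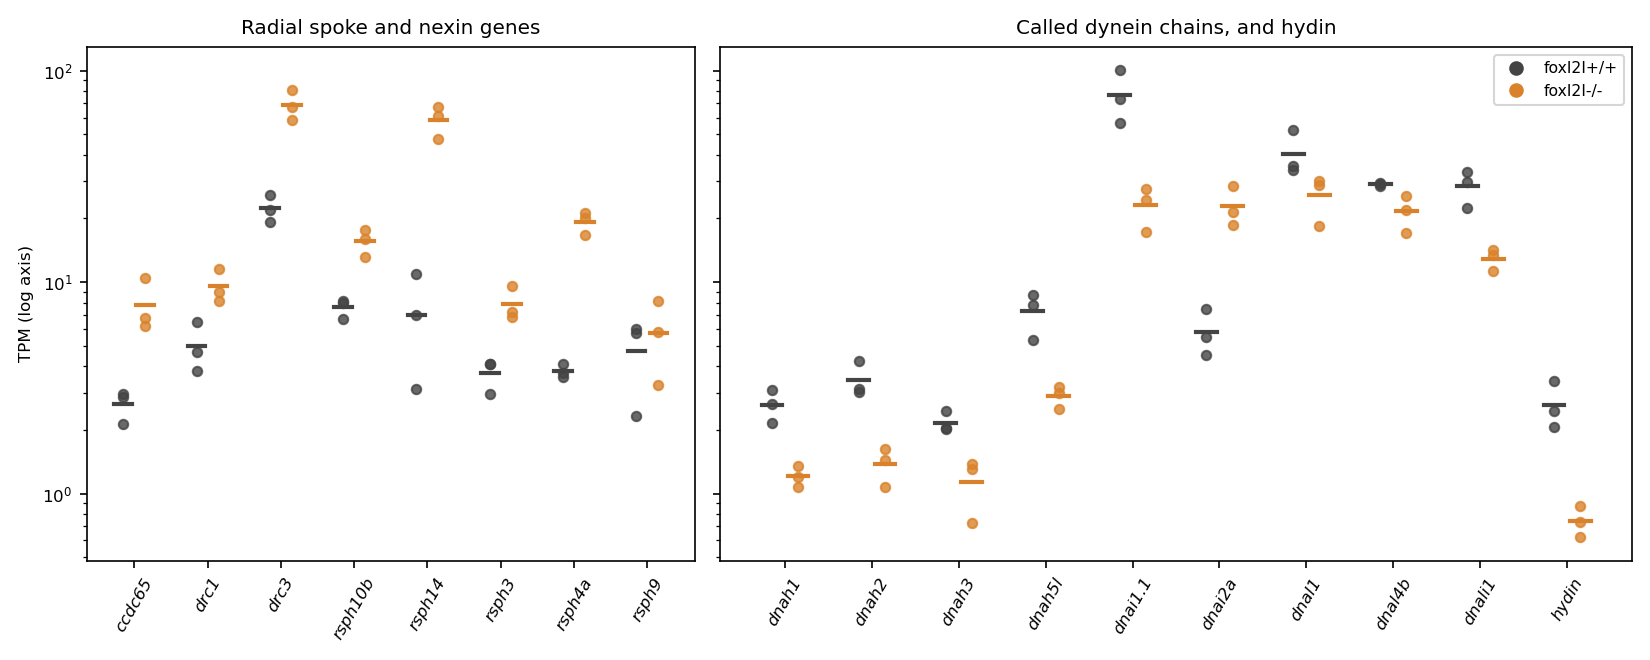
TPM (log axis) in each library for the 8 radial spoke and nexin genes (left) and for the 9 called dynein chains with hydin (right); points are libraries, horizontal lines genotype means (n = 3). The foxl2l-/- libraries lie above the foxl2l+/+ libraries for every spoke and nexin gene but rsph9, and below them for every gene on the right but dnai2a.

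Among axonemal dynein chains, more genes fell than rose. Of 20 tested, 8 fell, 1 rose and 11 did not pass, so 45% were called, against 31.6% of all tested genes. The median log2 fold change of these chains was -0.50. It was -0.29 under library totals, where 6 fell and 1 rose, and -0.16 with limma-trend on log2(TPM + 1), where 5 fell and 2 rose, while log2(TPM + 0.1) gave 4 and 2. These settings moved all tested genes upward, from a median of 0.05 to 0.25, 0.19 and 0.28 in the same order. Summed TPM was 125, 142 and 144 in foxl2l-/- and 210, 220 and 230 in foxl2l+/+ libraries, without overlap. Among the heavy chains, the motor subunits, 4 of 12 fell and none rose. That is 33.3% called, against 31.6% of all tested genes in either direction. Of the intermediate and light chains, which anchor and regulate the motors, 4 of 8 fell and 1 rose, or 62.5% called.

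The 3 called inner arm heavy chain genes were lower, and all had low TPM. Dnah2 (chromosome 7, 21321317 to 21626580, forward strand) measured 3.13, 4.23 and 3.02 TPM in foxl2l+/+ and 1.08, 1.45 and 1.62 TPM in foxl2l-/- libraries. It fell by 1.60 ± 0.26 on the log2 scale (SE; edgeR adjusted p = 0.000769), with no overlap between genotypes. Dnah1, at 2.16 to 3.08 TPM in foxl2l+/+ and 1.07 to 1.34 TPM in foxl2l-/- libraries, fell by 1.39 ± 0.27. Dnah3 fell by 1.203 ± 0.30, from 2.02 to 2.45 TPM down to 0.725 to 1.38 TPM. Its span shares 2144 bases with lyrm1 on the other strand, which was at 76.8 TPM in foxl2l+/+ and 36.2 TPM in foxl2l-/- cells on average, and the libraries do not record strand. With limma-trend on log2(TPM + 0.1) the calls of dnah1 (adjusted p = 0.0566) and dnah3 (adjusted p = 0.117) ended, and that of dnah3 also with log2(TPM + 1) (adjusted p = 0.0903).

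Dnah5l, named for similarity to the outer arm heavy chain gene dnah5 (chromosome 24, 33589667 to 33697002, forward strand), measured 5.31, 8.70 and 7.78 TPM in foxl2l+/+ and 3.18, 2.51 and 2.99 TPM in foxl2l-/- libraries. It fell by 1.59 ± 0.25 (log2, SE; edgeR adjusted p = 0.000559). The other outer arm genes, dnah5 (-0.27 ± 0.32), dnah9 (-0.42 ± 0.42) and dnah9l (-0.25 ± 0.63), did not pass, nor did dnah11_1 (0.28 ± 0.36) and dnah11_2 (0.64 ± 0.68), all with overlapping genotypes. The dnah11_1 and dnah11_2 models share 42797 bases of span on 1 strand, so reads could be split between them. The inner arm genes dnah6 (0.35 ± 0.25), dnah7 (-0.56 ± 0.26) and dnah12 (-0.43 ± 0.27) did not pass either. Dynein heavy chain genes are long, and 11 of the 12, like hydin, were in the longest of 10 equal groups of tested genes by the length behind the TPM values. The log2 fold changes of that group had a median of -0.02, with 11.7% called higher and 17.3% lower. The heavy chain gene outside it was dnah9, in group 5 from the shortest, whose model spans only 137149 to 145076 on chromosome 12. The part of transcript length in these differences was not tested.

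The intermediate chain genes of the outer arm went in opposite directions. Dnai1.1 (chromosome 21, 18292535 to 18304016, forward strand), the dynein chain with the highest mean TPM, measured 100.3, 73.2 and 56.6 TPM in foxl2l+/+ and 17.3, 27.4 and 24.4 TPM in foxl2l-/- libraries. It fell by 1.99 ± 0.24 on the log2 scale (SE; edgeR adjusted p = 9.43e-05). Dnai2a (chromosome 12, 35936447 to 35944654, reverse strand) measured 7.47, 5.49 and 4.54 TPM in foxl2l+/+ and 28.5, 21.4 and 18.6 TPM in foxl2l-/- libraries. It rose by 1.74 ± 0.28 (edgeR adjusted p = 0.000729), and neither gene overlapped between genotypes. Their copies were low, with dnai1.2 at 1.73 to 5.87 TPM over all libraries (0.34 ± 0.41) and dnai2b at 0 in 2 foxl2l+/+ libraries and 0.682 TPM in the third, against 0.80 to 1.39 TPM in foxl2l-/- libraries.

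Light chain genes that passed were lower. Dnali1, an inner arm light chain gene, fell by 1.40 ± 0.25 (log2, SE), from 22.4 to 33.3 TPM down to 11.2 to 14.1 TPM. Dnal1, of the outer arm, fell by 0.88 ± 0.28 and dnal4b by 0.66 ± 0.23, and both calls rested on particular libraries. Dnal1 was not called without foxl2l-/- replicate 2 or 3 or foxl2l+/+ replicate 3 (edgeR adjusted p = 0.051, 0.0605 and 0.134). Dnal4b was called only with foxl2l-/- replicates 2 and 3 and every foxl2l+/+ library kept, with adjusted p of 0.0715 to 0.121 when any of these 5 was left out. Both calls also ended under library totals (0.0798 and 0.132) and with limma-trend on log2(TPM + 1) (0.0714 and 0.131). Dnal4a had a log2 fold change of -1.03 ± 0.41 and did not pass.

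Of the 3 central apparatus genes, hydin fell and the others did not pass. Hydin, which encodes a very large protein of a central pair projection (chromosome 18, 21273749 to 21401401, forward strand), measured 2.06, 3.40 and 2.45 TPM in foxl2l+/+ and 0.735, 0.877 and 0.621 TPM in foxl2l-/- libraries. It fell by 2.08 ± 0.31 on the log2 scale (SE) without overlap. Spef2 (-1.03 ± 0.43) and spag6 (1.06 ± 0.45), both of the central apparatus, pointed in opposite directions and overlapped between genotypes. Spag6 ranged from 0.977 to 3.26 TPM in foxl2l+/+ and from 3.04 to 8.07 TPM in foxl2l-/- libraries. It was called higher with DESeq2 (adjusted p = 0.0471), under library totals (adjusted p = 0.0478) and on leaving out foxl2l+/+ replicate 3 (adjusted p = 0.0486). Spef2 was called lower with DESeq2 (adjusted p = 0.0446) and on the same omission (adjusted p = 0.0400).

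The CFAP genes were divided. Of 20 tested, 7 rose, 4 fell and 9 did not pass, so 55% were called, against 31.6% of all tested genes. The median log2 fold change of these CFAP genes was 0.10 and became -0.04 without foxl2l-/- replicate 3. Their summed level was 598 to 664 TPM in foxl2l-/- and 626 to 648 TPM in foxl2l+/+ libraries. Cfap99 (chromosome 17, 43595692 to 43613566, forward strand) measured 0.762, 1.71 and 2.35 TPM in foxl2l+/+ and 9.32, 8.87 and 15.1 TPM in foxl2l-/- libraries, far apart from each other, and rose by 2.52 ± 0.39 (log2, SE; edgeR adjusted p = 0.000485). Cfap57, an inner dynein arm associated gene, measured 0.809, 0.530 and 0.386 TPM in foxl2l+/+ and 3.14, 3.62 and 2.97 TPM in foxl2l-/- libraries and rose by 2.24 ± 0.44. Cfap157, needed for sperm tail formation in mice, rose by 1.83 ± 0.36, from 1.90 to 3.22 TPM up to 9.09 to 12.8 TPM.

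The calls of the 4 smaller increases among CFAP genes ended on leaving out any of several libraries, while the fold changes stayed above 0. Cfap100, of an inner arm regulatory complex known from Chlamydomonas, rose by 1.07 ± 0.32 (log2, SE), cfap43 by 1.02 ± 0.30, the dynein assembly gene cfap300 by 0.89 ± 0.26 and the doublet wall gene cfap53, which acts in left-right asymmetry in zebrafish, by 0.82 ± 0.26. Over the 6 omissions the log2 fold change was 0.92 to 1.32 for cfap100, 0.60 to 1.23 for cfap43, 0.70 to 1.08 for cfap300 and 0.66 to 1.01 for cfap53. None of these calls held without foxl2l+/+ replicate 1 (edgeR adjusted p = 0.0748, 0.0703, 0.0662 and 0.0899). Without foxl2l-/- replicate 1, cfap100, cfap300 and cfap53 were not called (0.0829, 0.0915 and 0.124), nor was cfap43 without foxl2l-/- replicate 3 (0.0814). Calls also ended without foxl2l+/+ replicate 2 for cfap100, cfap43 and cfap53 (0.0819, 0.0884 and 0.0656), without foxl2l+/+ replicate 3 for cfap300 and cfap53 (0.0727 and 0.0683), and without foxl2l-/- replicate 2 for cfap100 (0.0658). With foxl2l+/+ replicate 1 left out, 3 CFAP genes were higher and 4 lower, and without foxl2l-/- replicate 1 or foxl2l+/+ replicate 2 it was 4 and 4. Cfap73, of the same complex as cfap100, had a log2 fold change of 0.87 ± 0.32 and did not pass, although the genotypes did not overlap.

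The 4 CFAP genes that fell lay at moderate levels. Cfap299 (chromosome 5, 39563301 to 39669846, forward strand) measured 38.4, 55.3 and 27.3 TPM in foxl2l+/+ and 18.9, 13.6 and 17.3 TPM in foxl2l-/- libraries and fell by 1.55 ± 0.32 (log2, SE; edgeR adjusted p = 0.00306). The doublet wall gene cfap161 fell by 0.999 ± 0.22, from 50.9 to 57.6 TPM down to 30.0 to 35.3 TPM, and cfap70 by 1.04 ± 0.23, with 20.9 to 24.99 TPM against 9.51 to 18.2 TPM. Cfap298, a dynein arm assembly gene known from zebrafish as kurly, fell by 0.71 ± 0.19. That call ended under library totals (adjusted p = 0.0576) and with limma-trend on log2(TPM + 1) (adjusted p = 0.0539).

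The CFAP genes with the highest levels did not pass. Cfap20, of the inner junction of the doublet, measured 260.5, 257.6 and 257.1 TPM in foxl2l+/+ and 261.5, 230.4 and 197 TPM in foxl2l-/- libraries, with a log2 fold change of -0.41 ± 0.19. Cfap97 lay at 56.4 to 63.5 TPM in foxl2l+/+ and 66.2 to 73.8 TPM in foxl2l-/- libraries. Its log2 fold change of -0.04 ± 0.17 on TMM-scaled counts turned to 0.21 with limma-trend on log2(TPM + 1). Cfap206, a radial spoke base gene in Tetrahymena, was low in foxl2l-/- replicates 1 and 2 (4.47 and 3.39 TPM) and as high in replicate 3 (12.02 TPM) as in the foxl2l+/+ libraries (10.2 to 11.8 TPM).

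**Figure D3:**
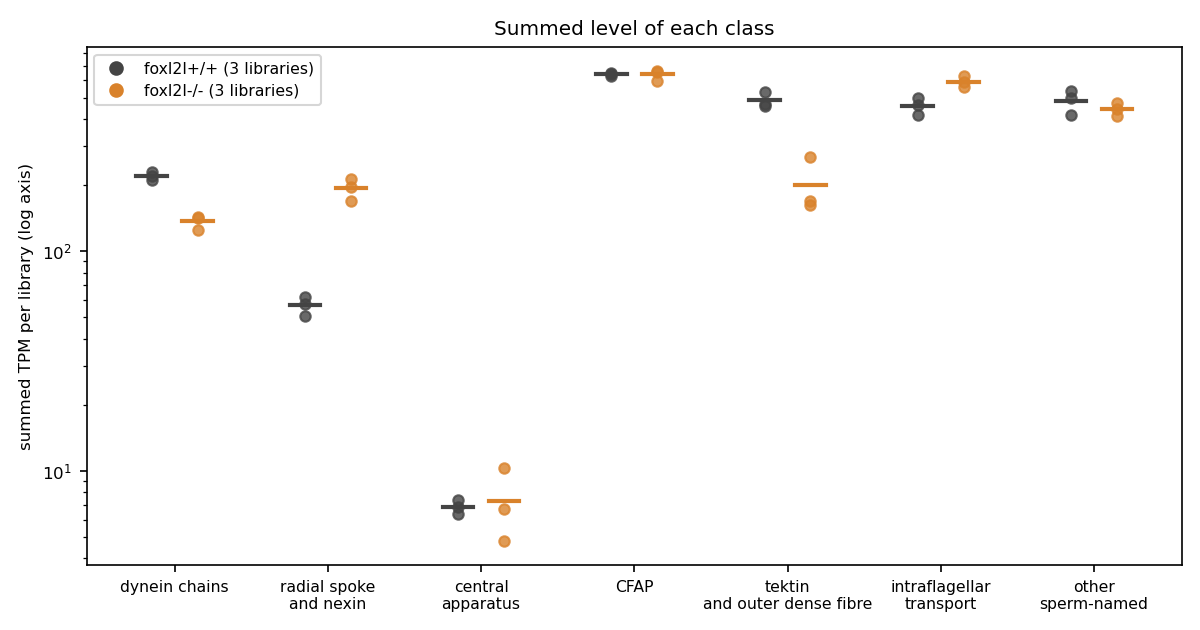
Summed TPM (log axis) of each class in each library; points are libraries, horizontal lines genotype means (n = 3). The genotypes lie apart for dynein chains, radial spoke and nexin, tektin and outer dense fibre, and intraflagellar transport genes, and overlap for the other classes.

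Tektin and outer dense fibre genes held large changes in both directions. Of 8 tested, 4 fell, 2 rose and 2 did not pass, so 75% were called, against 31.6% of all tested genes. Tekt2, with at most 8 counts in a library, did not pass the filter on low counts. The median log2 fold change was -0.77, but 0.31 with DESeq2 and 0.36 without a filter, where tekt2 entered. Odf3l2a, a relative of a sperm tail fibre gene (chromosome 2, 41926707 to 41934019, forward strand), had the highest mean level of all members. It measured 416, 428 and 491 TPM in foxl2l+/+ and 121, 128 and 195 TPM in foxl2l-/- libraries, of which replicate 3 was the highest, and fell by 1.86 ± 0.19 (log2, SE). This gene dominated the summed level of the class, which was 163, 170 and 269 TPM in foxl2l-/- and 457, 467 and 533 TPM in foxl2l+/+ libraries.

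Odf3b of the same family measured 9.90, 9.27 and 9.12 TPM in foxl2l+/+ and 2.10, 1.88 and 3.57 TPM in foxl2l-/- libraries, where it was well below the foxl2l+/+ range. Its log2 fold change was -2.18 ± 0.28 (SE). Odf3l2b had 2, 163 and 146 counts in foxl2l+/+ and 26, 10 and 15 counts in foxl2l-/- libraries, so foxl2l+/+ replicate 1 lay below all foxl2l-/- libraries. It fell by 3.07 ± 1.03, but the call ended with any library left out other than foxl2l+/+ replicate 1 (edgeR adjusted p = 0.0545 to 0.15), under library totals (0.0512) and with limma-trend on log2(TPM + 1) (0.165).

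Odf2b, related to a centriole appendage and sperm tail gene (chromosome 8, 31016180 to 31031534, forward strand), measured 5.12, 5.12 and 3.44 TPM in foxl2l+/+ and 13.1, 12.8 and 31.2 TPM in foxl2l-/- libraries. It rose by 1.77 ± 0.34 on the log2 scale (SE), with replicate 3 the highest of the foxl2l-/- libraries. The tektin genes, whose products form filaments in the doublet wall, differed from each other. Tekt3 (chromosome 12, 37327867 to 37343858, reverse strand) measured 3.81, 2.45 and 1.72 TPM in foxl2l+/+ and 12.3, 10.2 and 16.7 TPM in foxl2l-/- libraries, and rose by 2.03 ± 0.37. Tekt1 fell by 1.99 ± 0.39, from 6.48 to 11.2 TPM down to 2.18 to 2.78 TPM, and overlaps the span of an unnamed gene on the other strand at 19.6 TPM in foxl2l+/+ and 26.05 TPM in foxl2l-/- cells on average. Tekt4 had a log2 fold change of 0.64 ± 0.34 and did not pass.

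Intraflagellar transport genes were higher on balance. Of 11 tested, 4 rose, 1 fell and 6 did not pass, so 45.5% were called, against 31.6% of all tested genes. The median log2 fold change of these 11 was 0.48. RLE factors gave 4 higher and 2 lower. The omission of foxl2l-/- replicate 1 gave 3 and 2, and that of foxl2l+/+ replicate 1 gave 5 and 1. Scaled by library totals 6 were higher and 1 lower, the median then being 0.68. That scaling also moved the median of all tested genes, from 0.05 to 0.25. The summed level of the class was 562, 590 and 626 TPM in foxl2l-/- and 417, 462 and 497 TPM in foxl2l+/+ libraries, without overlap. Ift140, the only member of the IFT-A complex, which serves the return transport (chromosome 24, 37825634 to 37901493, forward strand), measured 7.19, 7.43 and 8.59 TPM in foxl2l+/+ and 17.1, 24.2 and 29.6 TPM in foxl2l-/- libraries. It rose by 1.34 ± 0.22 on the log2 scale (SE; edgeR adjusted p = 0.000658).

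The other 10 belong to IFT-B, the complex of outward transport, of which 3 rose and 1 fell. Ift22 (chromosome 5, 30702084 to 30704390, reverse strand) measured 60.2, 50.3 and 62.2 TPM in foxl2l+/+ and 128, 124 and 122 TPM in foxl2l-/- libraries, with a small spread in each genotype, and rose by 0.87 ± 0.19 (log2, SE). Ift88, whose loss blocks cilium formation in zebrafish, measured 15.9, 14.2 and 13.1 TPM in foxl2l+/+ and 23.8, 29.6 and 48.7 TPM in foxl2l-/- libraries and rose by 0.96 ± 0.23. Ift57 rose by 0.80 ± 0.21, a call that ended without foxl2l-/- replicate 1 (edgeR adjusted p = 0.0548).

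Ift20, which also acts at the Golgi, was the 1 member that fell, by 0.94 ± 0.24 (log2, SE). It measured 64.9, 55.0 and 49.6 TPM in foxl2l+/+ and 36.7, 39.1 and 28.5 TPM in foxl2l-/- libraries. Its span shares 116 bases with tmem97 on the other strand, at 65.7 TPM in foxl2l+/+ and 21.9 TPM in foxl2l-/- cells on average. Ift46, the IFT gene with the highest level at 153 to 193 TPM in foxl2l-/- and 183 to 220 TPM in foxl2l+/+ libraries, had a log2 fold change of -0.51 ± 0.18 and an adjusted p of 0.0516 in the same test. RLE factors gave it a call as lower (adjusted p = 0.0457), and so did the omission of foxl2l-/- replicate 1 (adjusted p = 0.0156). No call was made for ift80, ift52, ift74, ift81 and ift172, whose log2 fold changes were 0.53, 0.47, 0.48, 0.38 and 0.21.

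Of the 20 remaining genes named for sperm or testis, 2 rose, 4 fell and 14 did not pass. That is 30% called, against 31.6% of all tested genes. The median log2 fold change of this group was -0.23, and 0.05 with limma-trend on log2(TPM + 1), where that of all tested genes was 0.19. Spata20, which encodes a thioredoxin-like protein (chromosome 12, 27589607 to 27665591, forward strand), measured 8.24, 10.7 and 13.4 TPM in foxl2l+/+ and 31.3, 34.5 and 65.6 TPM in foxl2l-/- libraries, and rose by 1.74 ± 0.28 (log2, SE). Spata6l, the relative of a sperm neck gene, measured 177, 190.4 and 167 TPM in foxl2l+/+ and 135, 99.9 and 109 TPM in foxl2l-/- libraries and fell by 0.88 ± 0.19. Spag7, whose product has a nucleic acid binding domain, fell by 1.24 ± 0.20, from 29.8 to 41.8 TPM down to 15.3 to 19.4 TPM.

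Spata18, known in mammals for a role in mitochondrial quality control, fell by 1.42 ± 0.38, a call that ended without foxl2l-/- replicate 2 (edgeR adjusted p = 0.0626) and with limma-trend on log2(TPM + 0.1) (adjusted p = 0.0515). Spata4, the gene of this group with the second highest level, ranged from 83.1 to 211 TPM in foxl2l+/+ and from 108 to 146 TPM in foxl2l-/- libraries, a wide overlap. It was called lower when foxl2l+/+ replicate 1 was left out (log2 fold change -0.84, adjusted p = 0.021). The klhl10 genes, related to a ubiquitin ligase adaptor of mouse spermatids, did not pass. Klhl10a had a log2 fold change of -0.38 ± 0.40, and its low copies klhl10b.1 and klhl10b.2, neighbours on chromosome 17 that could share reads, had -1.02 ± 0.55 and -1.65 ± 0.62 (SE). Ropn1l, a spoke-associated gene of sperm tails, had 0.44 ± 0.27. Members that act outside the cilium, such as the TNF signalling adaptor gene spata2 (-0.25 ± 0.34) and the guanine nucleotide exchange factor gene spata13 (0.29 ± 0.33), did not pass.

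Of the 91 members, 35 share part of their genomic span with another gene, which unstranded reads may not separate. Besides dnah3, tekt1 and ift20, this touched several called members with a neighbour on the other strand. Cfap300, called higher, shares 2889 bases with angptl5, at 7.73 TPM in foxl2l-/- and 2.50 TPM in foxl2l+/+ cells on average. Cfap43, also higher, shares 428 bases with sfr1, which averaged 141 and 277 TPM in the same order. Dnali1, called lower, shares 135 bases with gnl2, at 105 and 50.8 TPM. Odf2b, called higher, shares 922 bases with snrnp200, at 44.6 and 73.4 TPM. Rsph10b, called higher, shares 374 bases with dlgap5, at 82.2 and 78.9 TPM. Cfap99, called higher, shares 2673 bases with rtkn2a, at 26.1 and 33.5 TPM. Of these neighbours on the other strand, those of dnah3, ift20 and cfap300 differed in the same direction as the member. That of rsph10b hardly differed, and those of tekt1, cfap43, cfap99, dnali1 and odf2b differed in the opposite direction. On the same strand, cfap70, called lower, shares 49471 bases with coro7, at 4.71 and 3.26 TPM. Dnal1, called lower, shares 5955 bases with a second model listed as DNAL1, at 0 TPM. The part of these overlaps in the calls was not tested.

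Gene copies of 11 pairs within the list were compared by their log2 ratio of TPM + 0.1 in each library. The clearest opposition was between the copies of spag1, a dynein arm assembly gene. Spag1a measured 0.999, 0.487 and 1.46 TPM in foxl2l+/+ and 0.198, 0.0942 and 0.110 TPM in foxl2l-/- libraries, and fell by 3.05 ± 0.72 (log2, SE) on 6 to 61 counts per library. Spag1b measured 4.10, 1.64 and 6.19 TPM in foxl2l+/+ and 6.36, 10.8 and 26.9 TPM in foxl2l-/- libraries, and rose by 1.61 ± 0.52. Its CPM ranges overlapped between genotypes, and its call ended without foxl2l-/- replicate 3, foxl2l+/+ replicate 1 or foxl2l+/+ replicate 2 (edgeR adjusted p = 0.176, 0.0899 and 0.118). For spag1a over spag1b the log2 ratio averaged -5.75 ± 1.29 (SD, n = 3) in foxl2l-/- cells, against -1.84 ± 0.24 (SD, n = 3) in foxl2l+/+ cells. That of dnai1.1 to dnai1.2, copies on chromosome 21 whose reads could be split, was 2.18 ± 0.65 and 4.56 ± 0.42 (SD). Both ratios lay apart in all libraries, as did that of dnah5 to dnah5l (-0.97 ± 0.32 against -2.18 ± 0.45). For these 3 pairs the two-sided exact permutation p was 0.1, the smallest that 3 against 3 libraries allows, and 0.37 after Benjamini-Hochberg adjustment over the 11 pairs.

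Genes of the cilium outside the name rule also went both ways. So did all tested genes, of which 15.7% were called higher and 15.8% lower. By list, the share called in either direction ran from 18.2% to 50.0%, against 31.6% of all tested genes. Of 18 dynein arm assembly and docking genes, 7 rose, 2 fell and 9 did not pass, with a median log2 fold change of 0.62. Zmynd10, a cytoplasmic dynein assembly factor, measured 7.25, 1.64 and 5.45 TPM in foxl2l+/+ and 40.5, 37.7 and 50.5 TPM in foxl2l-/- libraries and rose by 2.94 ± 0.42 (log2, SE; edgeR adjusted p = 0.000285). The docking complex genes ccdc151 and ttc25 rose by 1.16 ± 0.25 and 0.89 ± 0.19, whereas armc4, another docking gene, fell by 1.201 ± 0.24. With foxl2l+/+ replicate 2 or 3 left out, 5 of these genes were higher and 1 lower. Without foxl2l+/+ replicate 3 the calls of dnaaf1 (adjusted p = 0.0562), dnaaf11 (adjusted p = 0.0721), daw1 (adjusted p = 0.0615) and dnaaf4 (adjusted p = 0.201) ended. The call of dnaaf1 also ended without foxl2l-/- replicate 1 or 2 or foxl2l+/+ replicate 1 or 2 (edgeR adjusted p = 0.0504 to 0.129). That of dnaaf4 also ended without foxl2l-/- replicate 2 or 3 or foxl2l+/+ replicate 1 or 2 (0.0542 to 0.189). Under library totals dnaaf4 was not called either (0.103). Dnaaf11 also lost its call without foxl2l-/- replicate 3 or foxl2l+/+ replicate 2 (0.0544 and 0.103).

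Of 12 regulators of ciliary transcription and centriole amplification, 1 rose and 2 fell. Foxj1b, a master regulator of motile cilia, measured 0.563, 0.923 and 0.675 TPM in foxl2l+/+ and 3.39, 1.64 and 2.89 TPM in foxl2l-/- libraries, without overlap but low. It rose by 1.61 ± 0.51 (log2, SE), and the call ended without foxl2l-/- replicate 1 or foxl2l+/+ replicate 1 or 3 (edgeR adjusted p = 0.132, 0.0898 and 0.0733). Its paralogue foxj1a (0.10 ± 0.44) and the ciliary factor gene rfx2 (0.00 ± 0.25) did not pass. E2f5 fell by 1.39 ± 0.21, from 279 ± 63.1 to 128 ± 38.4 TPM (SD, n = 3). Rfx3 fell by 1.56 ± 0.55 at 0.406 to 1.67 TPM, and remained called without foxl2l+/+ replicate 3 but with no other single library left out (edgeR adjusted p = 0.0632 to 0.142), nor under library totals (adjusted p = 0.0827).

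Of 13 centriole duplication genes, 4 fell and none rose, with a median log2 fold change of -0.35. The centrin genes cetn3 and cetn4 fell by 1.51 ± 0.19 and 1.55 ± 0.24 (log2, SE), cetn3 from 106 ± 9.86 to 44.1 ± 3.65 TPM (SD, n = 3). The centriole assembly gene stil fell by 1.45 ± 0.23 and cep135 by 0.97 ± 0.23. Under library totals 4 were lower and 1 higher with a median of -0.15, and with limma-trend on log2(TPM + 1) it was 3 and 1 with a median of -0.09. Of 19 transition zone and ciliary membrane genes, 2 rose and 5 fell. Tmem237a and tctn1 rose by 1.93 ± 0.32 and 1.03 ± 0.23, and the small GTPase gene arl13a fell by 1.90 ± 0.23. Under library totals the balance of that list turned to 4 higher and 3 lower, and with limma-trend on log2(TPM + 1) to 6 higher and 1 lower. Both settings moved all tested genes upward, from a median of 0.05 to 0.25 and 0.19. Library totals called 20.7% of all tested genes higher and 11.5% lower, and limma-trend 22.6% and 11.2%, against 15.7% and 15.8% in the main fit. It was 3 higher and 1 lower without foxl2l+/+ replicate 3, where the calls of cc2d2a, rpgrip1l, cep290 and tctn2 ended. It was 2 higher and 2 lower without foxl2l-/- replicate 2, and 2 and 3 without foxl2l-/- replicate 1. Without foxl2l-/- replicate 3 it was 3 and 6.

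Of 11 genes of the BBSome, which carries membrane cargo, and its partners, 2 rose and 2 fell. Library totals gave 4 higher and 2 lower, limma-trend on log2(TPM + 1) and DESeq2 both 3 and 2, and the omission of foxl2l-/- replicate 1 gave 1 and 2. Library totals and limma-trend also raised the share of all tested genes called higher, from 15.7% to 20.7% and 22.6%. Bbs5 rose by 0.98 ± 0.22 (log2, SE), while bbip1 fell by 1.19 ± 0.23 and arl6 fell by 1.101 ± 0.22. Of 11 subunits of the transport motors kinesin-2 and dynein-2, 1 rose and 1 fell. A kinesin-2 gene listed as kif3cb measured 0.628, 0.775 and 0.676 TPM in foxl2l+/+ and 7.99, 5.22 and 11.3 TPM in foxl2l-/- libraries and rose by 3.28 ± 0.39. The core motor genes kif3a (0.11 ± 0.18), kif3b (-0.27 ± 0.25) and dync2h1 (-0.19 ± 0.24) did not pass.

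**Figure D4:**
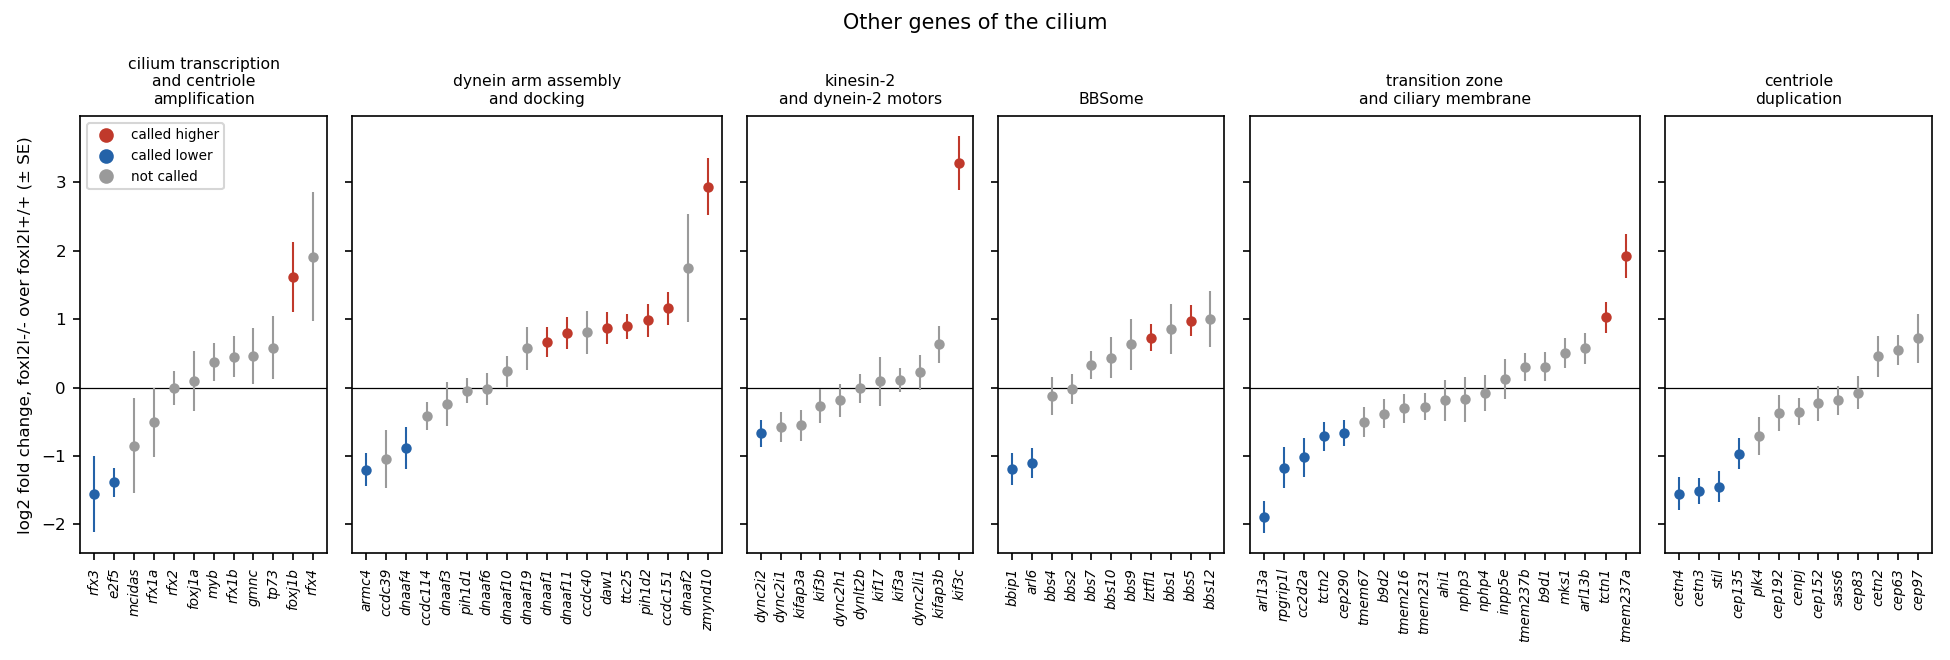
Log2 fold change of foxl2l-/- over foxl2l+/+ for the tested genes of 6 further cilium lists (points, edgeR estimate; bars, SE; n = 3 libraries per genotype), coloured by call at an adjusted p of 0.05. Dynein arm assembly and docking genes have 7 calls higher and 2 lower, and centriole duplication genes have 4 calls, all lower.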

How the data were processed

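The authors deposited raw read counts per gene and library and TPM values, named so per the file headers, a unit scaled for gene length and depth. Per the submitters' processing notes, GRCz11 was the genome build and bcl2fastq a tool. For the aligner, the counter and the annotation release, the sources give no name. Another 12 columns of RPKM and CPM values were not used here. SMART-Seq HT cDNA made into Nextera XT libraries, per the labels' protocols, carries no strand information, so genes that overlap on opposite strands are uncertain. Same-strand overlaps and near-identical copies are uncertain as well, because reads could be shared between them.

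Members and lists were chosen with earlier results of these data known. In the lists of other cilium genes, 1 gene is not reported here. Counts were tested with edgeR 4.0.16 in R 4.3.3 over the whole table, using filterByExpr, TMM factors, glmQLFit and glmQLFTest. The p-values were adjusted by Benjamini-Hochberg over all 23576 genes tested, with calls at 0.05. Fold changes and SE come from this fit, levels from the deposited TPM values. The steps were tested on simulated data. Alternatives were RLE factors, library totals, DESeq2 1.42.0, limma-trend (limma 3.58.1) on log2(TPM + 1) and log2(TPM + 0.1), no filter, 10 counts in 3 libraries, a replicate block and each library left out.

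Named genes were up to 4 members of each class with the smallest p among those called and 2 with the highest mean TPM. Other called members are also named, and members named without a call outside this rule were chosen after their values were seen, as were the other cilium genes named. Depth was 25176401 to 39189535 counts per library, and since cDNA was amplified without molecular identifiers, reads are not independent molecules. No 2 libraries of 1 genotype agreed within sampling noise (chi-square over its degrees of freedom 33.28 to 119.5). The authors' deposited table of log2 fold changes and FDR-adjusted p-values calls 23 members higher and 22 lower at 0.05, and 43 of these match the direction called here.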

Additional observations from a re-analysis of the deposited data

How the results depend on the processing

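The counts of 21 members higher and 22 lower stayed within 1.5 times in every setting tried, with 15 to 19 higher and 18 to 22 lower when each library was left out in turn. The members' median log2 fold change of 0.04 ranged from -0.04 to 0.24 over those omissions. The split of calls was most uneven with limma-trend on log2(TPM + 0.1), at 30 members higher and 15 lower. Over all tested genes that setting called 5196 higher and 2581 lower. Of the 43 called members, 28 kept the call under all alternatives and 12 lost it when some library was left out. With the replicate number as a block, 21 rose and 23 fell. The block ended the calls of odf3l2b, foxj1b and rfx3 (adjusted p = 0.205, 0.0627 and 0.066) and gave 1 to ift46 (adjusted p = 0.0398). The replicate numbers showed no clear pairing of the libraries. Same-numbered libraries deviated together with correlations of -0.04, 0.05 and 0.04, and not every library correlated best with its own number. Such values cannot exclude that same-numbered libraries were handled together. Summed CPM in place of TPM weighs long genes more and also brings in the TMM factors, and these changes were not separated. It moved the log2 ratio of the summed level from -0.68 to -0.81 for dynein chains. For radial spoke and nexin genes the ratio went from 1.77 to 1.43, and for the central apparatus from 0.09 to -0.78. For CFAP genes it went from 0.00 to -0.12 and for other sperm-named genes from -0.12 to -0.48. Cfap97, never called, turned from -0.04 to 0.16 under library totals, to 0.21 with limma-trend on log2(TPM + 1) and on log2(TPM + 0.1), and to 0.016 and 0.0023 without foxl2l-/- replicate 2 and foxl2l+/+ replicate 3, within a range of -0.13 to 0.016 when each library was left out. Depth limits the weakest members, of which 7 had a mean below 1 TPM. Motifs in promoters were not searched.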
